A study of Mus musculus with 12 samples.

Results

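The 47 genes described here encode the machinery of DNA replication: the origin recognition complex, the licensing factors, the MCM helicase and its activators, the DNA polymerases and primase, the sliding clamp and its loader, RPA, flap removal and ligation, the nucleotide supply and fork protection. They were taken from a list of gene symbols, matched to the Ensembl identifiers of the count files, and make up 47 of 50600 identifiers and 47 of the 17847 genes with enough reads to test. All 47 passed the filter on low counts. The rule uses names and no measured values, but it was written with earlier results of these data known, and the members were examined for a common course with age and for genes that departed from it.

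RNA was measured by polyA RNA-seq in 12 libraries of the cerebral cortex of C57BL/6 mice, in a study of zinc in the forming cortex. The groups are 4 ages, with 3 libraries each: embryonic day 11 (E11), E13, E17 and the first day after birth (P1), and the labels name no treatment or engineered allele for any of them. Per the labels, a library held RNA of a single animal's cortex and no litter gave more than 1 library at an age, so the spread within an age is between animals. Total counts were 28173745 to 45858712 per library.

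Before a cell divides, the origin recognition complex (ORC) marks the places where copying can start, and CDC6 and CDT1 load the MCM ring there. The CDC45 and GINS proteins turn that ring into an active helicase, and the polymerases, clamp and ligase copy and join the strands. In the embryonic cortex this machinery serves the radial glia and intermediate progenitors, which divide near the ventricle, whereas the neurons they produce have left the cell cycle. Some ORC subunits have also been described in neurons that no longer divide.

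The replication genes lost most of their RNA between E11 and P1, and most of that between E13 and E17. Summed over the 47 genes, the level was 6580 ± 29.8 CPM (counts per 1000000 counts of the scaled library; mean ± SD, n = 3) at E11, 5250 ± 489 CPM at E13, 1520 ± 131 CPM at E17 and 1040 ± 28.2 CPM at P1. The P1 sum was thus 15.8% of the E11 sum. At P1, 46 of 47 genes were lower than at E11 in edgeR's quasi-likelihood test, with Benjamini-Hochberg adjustment over all tested genes and a threshold of 0.05, where 41.8% of all tested genes were lower and 40.5% higher. The median gene of the list changed by -2.98 on the log2 scale, against -0.04 for all tested genes. In bulk tissue, fewer dividing cells and less RNA per dividing cell cannot be told apart.

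No replication gene was higher at the later age of any of the 4 pairs of ages, and 0 were higher even at an unadjusted p under 0.05, in edgeR, DESeq2 or limma-voom. Tested across all 4 ages together, 46 of 47 changed, where 90.2% of all tested genes did. The fall was nevertheless far from uniform: the fitted changes between E11 and P1 ran from -4.98 for Orc1 to -0.05 for Orc4, and both extremes are subunits of the same complex.

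**Figure D1:**
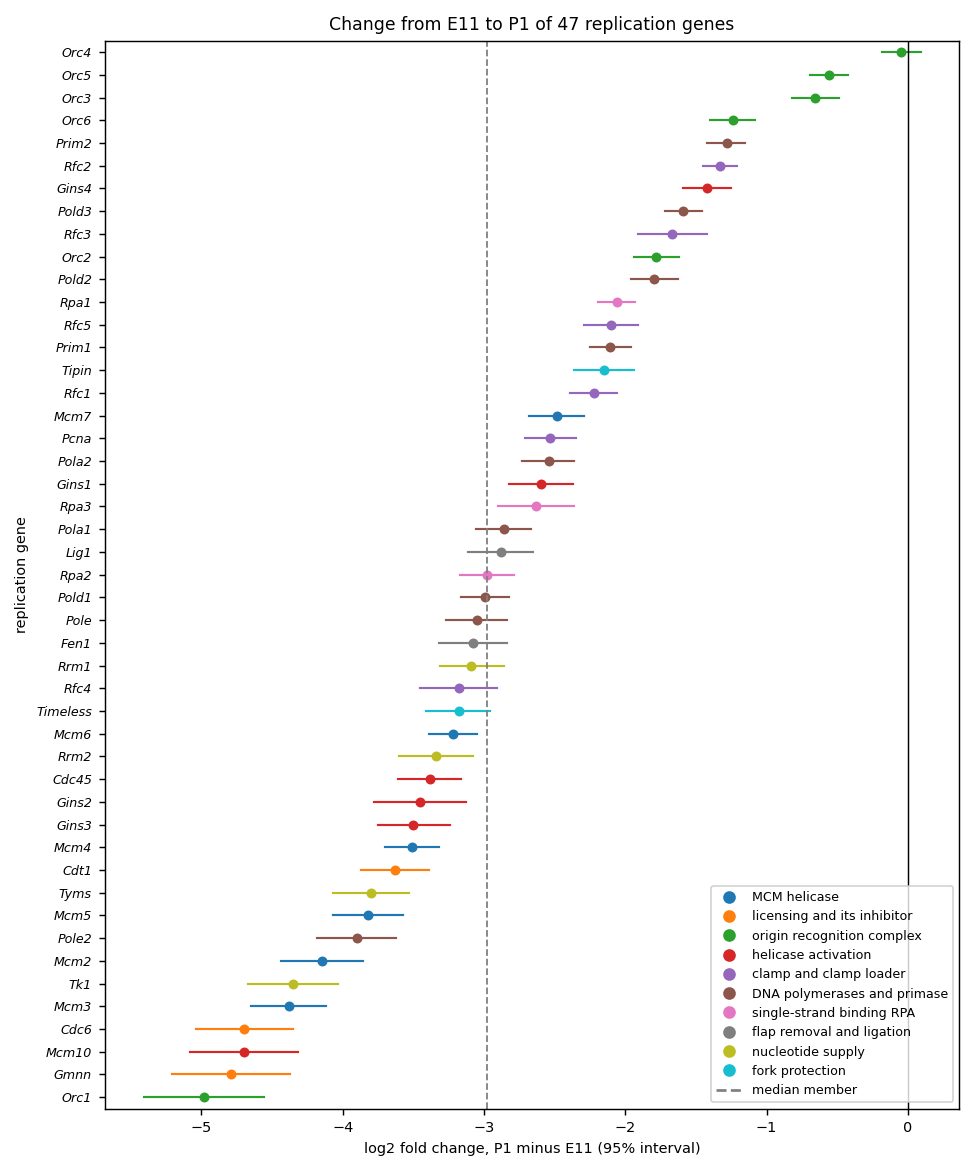
Log2 fold change of P1 over E11 for each of the 47 replication genes (points, with 95% intervals; colours give the role), ordered by size; the dashed line is the median of the 47 genes, -2.98. Orc4 lies at -0.05, beside the line of no change, and Orc1 lies at the other end at -4.98.

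The markers of the cells in the tissue moved over the same ages. The summed level of 8 neuron markers was 1290 CPM at E11, 2460 at E13, 9580 at E17 and 10200 at P1, and that of 8 radial glia markers was 2660, 2650, 1280 and 998 CPM in the same order. The radial glia markers did not move alike: 6 were lower at P1 than at E11 and 2 higher, with a median log2 change of -2.66. The 5 intermediate progenitor markers summed to 327, 776, 260 and 74.8 CPM. Sums for other cells also differed between ages. They were 10600, 1270, 266 and 62.3 CPM for 10 red cell genes, 1340, 928, 17.9 and 29.4 CPM for 8 genes of the meninges, and 164, 256, 4.25 and 1.45 CPM for 6 choroid plexus genes. Glial sums were highest at P1, with 49.7, 39.9, 137 and 313 CPM for 5 oligodendrocyte precursor genes and 79.3, 312, 301 and 454 CPM for 5 astrocyte genes. The astrocyte sum at E13 was mostly Aldoc (9949, 10195 and 7845 counts in A, B and C), while Gfap had 4, 4 and 5 counts. The precursor sum at E11 was mostly Pdgfra (1211, 1509 and 1408 counts), while Olig1 had 24, 2 and 21. Endothelial genes (5) summed to 231, 205, 144 and 131 CPM and microglia genes (6) to 42, 37.4, 41.9 and 52.5 CPM. All 6 cortex and forebrain markers had counts at every age (1240 to 1920 CPM), whereas 6 hindbrain and midbrain markers summed to 0.127 to 2.03 CPM, with Hoxa2, Hoxb2 and Hoxb3 at 0. The part of these shifts in cell makeup in the fall of the replication genes was not tested. With the red cell genes removed before scaling, the same number of replication genes, 46, was lower at P1 than at E11. That setting can change only the scaling. It leaves in the counts any replication gene reads that came from red cells, whose part was not tested.

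The step from E13 to E17 carried the largest share of the fall. At E17, 46 of 47 genes were lower than at E13 (37% of all tested genes were lower, 36.8% higher), with a median change of -1.94. Of all genes called in that step, 50.2% were lower, or 60.2% with scaling by library size alone. At P1, 39 were lower than at E17 (25.9% of all tested genes lower, 24% higher; median change -0.7). At E13, 37 were lower than at E11 (17.5% of all tested genes lower, 22.6% higher; median change -0.33). For each of the 46 genes that were lower at P1, the log2 fall was divided into its 3 steps: the median gene lost 11.7% of it between E11 and E13, 65.8% between E13 and E17 and 24.2% between E17 and P1. The middle step was the largest for 45 of the 46, and Orc5, with 39.7% of a small fall between E11 and E13, was the exception. The steps span unequal times, and E13 to E17 is longer than E11 to E13, so these shares are not rates.

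The early step rested partly on 1 library. Per library, the summed level was 6560, 6570 and 6610 CPM at E11, 5480, 4690 and 5580 CPM at E13, 1540, 1370 and 1630 CPM at E17, and 1040, 1070 and 1010 CPM at P1, for animals A, B and C. Library B was the lowest of its age for 45 of 47 genes at E13 and for 39 of 47 at E17. At E13 the same library had the highest sum of neuron markers, 2700 CPM against 2260 in A and 2410 in C, and of intermediate progenitor markers, 871 CPM against 723 and 734. E17 B differed: its neuron sum, 9590 CPM, lay between 9500 in A and 9650 in C. Its intermediate progenitor sum was the lowest, 212 CPM against 243 and 324. Its radial glia sum was the highest, 1390 CPM against 1200 and 1250, whereas E13 B had 2620 against 2650 and 2670. The part of these cells in the low replication RNA of E13 B and E17 B was not tested. Without E13 B, 21 genes rather than 37 were lower at E13 than at E11; without both E13 B and E17 B the count was 31, a setting chosen after the values were seen. In both settings 46 genes were lower at E17 than at E13, and 46 at P1 than at E11.

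**Figure D2:**
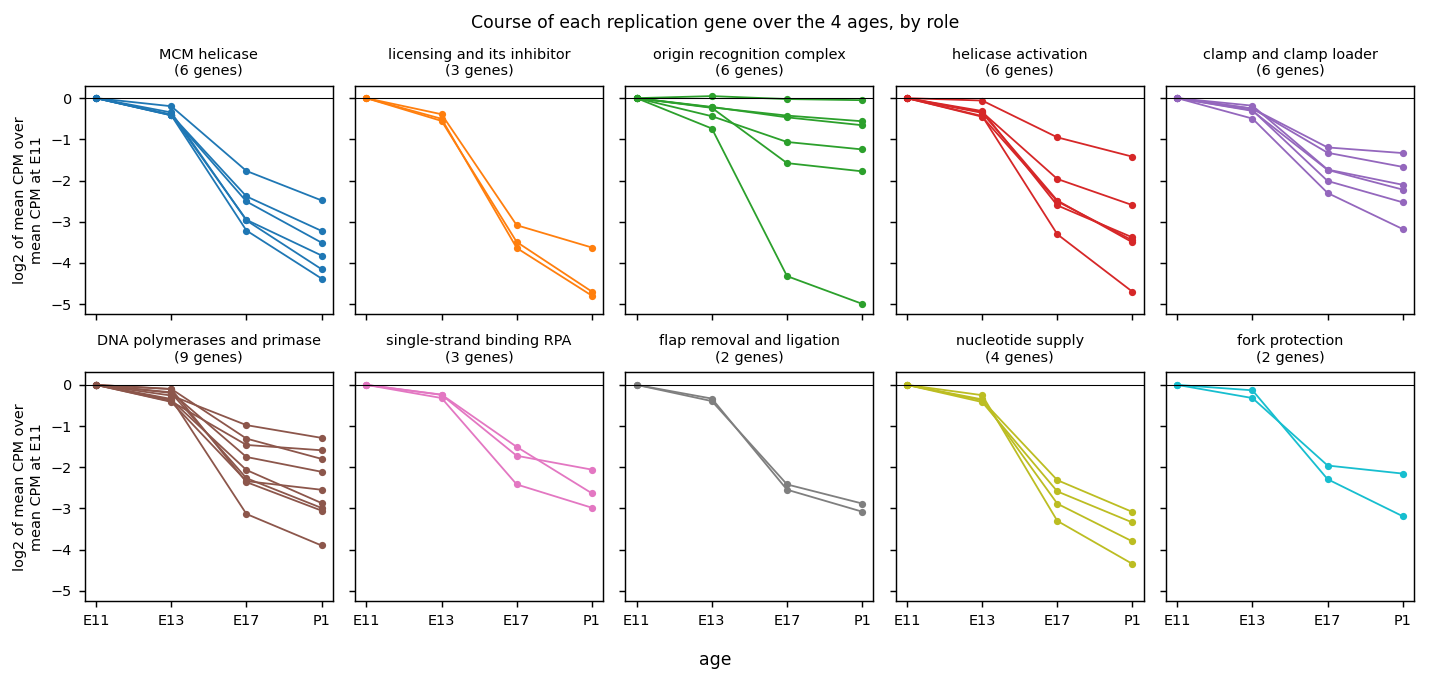
Log2 of the mean CPM at each age over the mean CPM at E11, one line per gene, in panels by role; 0 is the E11 level. Most lines drop furthest between E13 and E17; in the panel of the origin recognition complex Orc4 stays at 0 while Orc1 ends near -5.

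To ask which members departed from the common fall, each gene's change was tested against the median change of the 47 genes in place of no change. For P1 against E11, 17 of the 47 fell more than the median gene and 21 fell less, where 3.19% of all tested genes fell more and 92.8% fell less. For E17 against E13, 15 fell more and 21 fell less, against 3.47% and 88.6% of all tested genes. The median comes from the same data, so about equal numbers on either side of it are built in, and the names and sizes are what the test adds. Of the 21 that fell less between E11 and P1, 11 did so by at least 1 on the log2 scale: Orc2, Orc3, Orc4, Orc5, Orc6, Gins4, Rfc2, Rfc3, Prim2, Pold2 and Pold3.

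The origin recognition complex kept the largest share of its RNA. Its 6 genes summed to 187 CPM at P1 and 363 CPM at E11, so that 51.4% was left, whereas the sums of the other 9 role groups kept 5.56 to 22.7%. Within the complex, the largest and the smallest fall of all 47 genes stood side by side.

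Orc4 (ENSMUSG00000026761), which encodes one of the ATPase-fold subunits of the ORC ring, had 52.3, 55.9 and 53.2 CPM at E11, 52.4, 58.5 and 56.1 CPM at E13, 53.8, 54.2 and 50.9 CPM at E17, and 48, 55.3 and 52.7 CPM at P1. The values of all 4 ages overlapped. The change at P1 against E11 was -0.05 ± 0.06 (SE; edgeR, adjusted p = 0.479), with a 95% interval of -0.18 to 0.09, and it was the only gene of the 47 without a call. Against the median gene it stood 2.93 ± 0.07 higher (adjusted p = 5.43e-15). With scaling by library size alone the change was -0.28 (adjusted p = 0.00102) and with upper-quartile scaling -0.15 (adjusted p = 0.0477), both called lower; those scalings moved the median of all tested genes by -0.23 and -0.1.

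Orc1 (ENSMUSG00000028587), the subunit that completes the ring and binds CDC6, had the largest estimated fall of the 47, with 21.6, 21.9 and 22.6 CPM at E11, 13.4, 11.3 and 15.1 CPM at E13, 0.682, 1.22 and 1.41 CPM at E17, and 0.559, 0.747 and 0.764 CPM at P1. No 2 neighbouring ages overlapped except E17 and P1, and the E17 and P1 values rest on 18 to 60 counts per library. Only 3.13% of the E11 level was left at P1 (log2 change -4.98 ± 0.20, edgeR adjusted p = 2.17e-11), and the fall was 2.01 ± 0.20 larger than that of the median gene (adjusted p = 1.82e-07). Its 95% interval, -5.41 to -4.56, overlapped those of Gmnn, Cdc6, Mcm10, Tk1 and Mcm3, so it is not set apart as the lowest.

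The other 4 subunits lay between these, and each fell by less than the median gene. Orc5 (ENSMUSG00000029012) had 34.2, 36.7 and 35.2 CPM at E11, 32.3, 28.5 and 30.2 CPM at E13, 26.7, 25.5 and 27.1 CPM at E17, and 23.6, 24.3 and 24.2 CPM at P1. Its P1 values were all below its E11 values, yet 68% of the E11 level remained (log2 change -0.56 ± 0.06). Orc3 (ENSMUSG00000040044) had 73, 78.9 and 79.5 CPM at E11, 72.5, 63.1 and 63.9 CPM at E13, 57, 51 and 59.4 CPM at E17, and 46.9, 53.1 and 46.7 CPM at P1, which left 63.4% at P1 (-0.66 ± 0.08). Its E17 and P1 values overlapped, and those of the earlier ages did not. Orc6 (ENSMUSG00000031697), the subunit outside the ring, had 72.9, 78.9 and 82.6 CPM at E11, 60.4, 52.5 and 60.2 CPM at E13, 38.1, 37.6 and 36.3 CPM at E17, and 31.2, 35.8 and 32.2 CPM at P1, which left 42.3% (-1.24 ± 0.07). Orc2 (ENSMUSG00000026037) had 96.9, 101 and 92.7 CPM at E11, 86.2, 74.3 and 86.7 CPM at E13, 31.2, 31.4 and 35 CPM at E17, and 26.8, 30.1 and 27.9 CPM at P1, which left 29.1% (-1.78 ± 0.07). For Orc6 and Orc2, no neighbouring ages overlapped.

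These 4 genes were lower at P1 than at E11 with edgeR adjusted p-values of 1.95e-06 or less, and their departures from the median gene were 2.42 ± 0.06 for Orc5, 2.32 ± 0.08 for Orc3, 1.74 ± 0.07 for Orc6 and 1.2 ± 0.07 for Orc2 (adjusted p = 6.28e-10 or less). Between E17 and P1, only Orc1 and Orc2 of the complex were called lower (adjusted p = 0.0259 and 0.0356); the call of Orc2 was lost in 11 of 24 other settings and that of Orc1 in 5 of 24.

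To set different genes side by side, levels were divided by exon length, here as CPM per kilobase of merged exons from GENCODE M21. Merged exons join all annotated transcripts of a gene and can be longer than the transcripts present. Ranks and ranges between genes therefore depend partly on the annotation. At E11 the ORC genes spanned a 5.51-fold range, with Orc6 highest at 31.6 and Orc5 lowest at 5.74 CPM per kb, and Orc1 at 6.33. At P1 the range was 67.7-fold: Orc6 was again highest at 13.4, and Orc1 was lowest at 0.198. The order of the other 5 at P1 was Orc6, Orc3, Orc2, Orc4 and Orc5. Neighbours among Orc3 (8.03 ± 0.598 CPM per kb), Orc2 (7.33 ± 0.436) and Orc4 (6.97 ± 0.496) differed by less than the sum of their SDs (n = 3).

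Some reads of these genes may not be theirs alone, and reads over exon bases shared with another gene may have been left out. It is not stated whether strand was used in counting. By GENCODE M21, 29.8% of the exon bases of Orc2 overlap Nif3l1 on the opposite strand, and Nif3l1 had 46 CPM at P1 and 63.8 CPM at E11. Of the exon bases of Orc4, 5.98% overlap Acvr2a and 1.82% overlap Mbd5, both on the opposite strand. Acvr2a had 127 CPM at P1 and 65.5 CPM at E11, and Mbd5 had 62.4 CPM and 29.3 CPM. Of those of Orc6, 6.93% overlap Vps35 on the opposite strand, which had 218 CPM at P1 and 183 CPM at E11. Of those of Orc1, 10.8% overlap Gm12743 on the opposite strand, which had 1.64 CPM at P1 and 0.82 CPM at E11, and of those of Orc5, 1.46% overlap Gm15421 on the same strand. The part of these neighbours in the courses of the ORC genes was not tested.

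**Figure D3:**
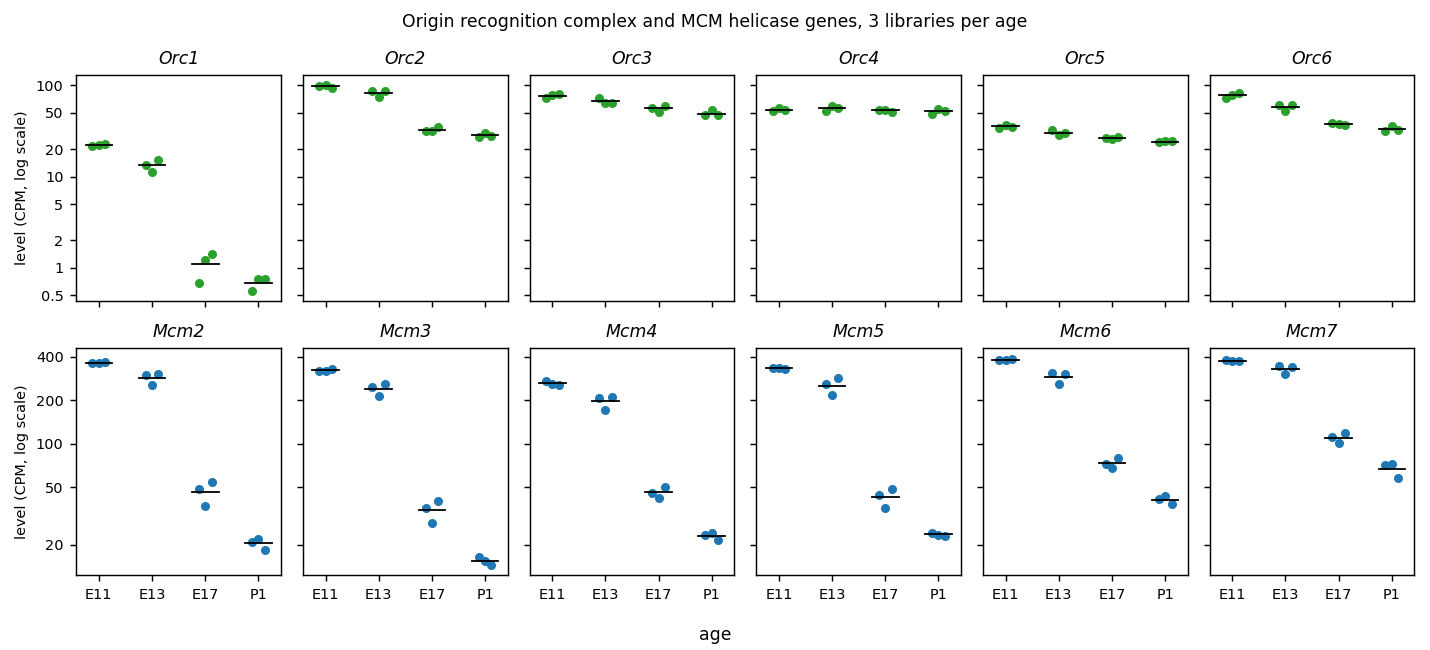
Level in CPM (log scale) of the 6 ORC genes (top row) and the 6 MCM genes (bottom row) in each library (points; 3 per age, E11, E13, E17 and P1), with the mean of each age as a line. Orc4 stays between 48 and 58.5 CPM, Orc1 ends below 1 CPM, and all 6 MCM genes drop between E13 and E17.

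Promoter sequences are shown for genes with a large fall (Orc1 and Mcm10) and a small one (Orc4 and Orc5). Mcm6 is also shown, as it held the most matches to the motif described next. It fell by 0.24 (log2) more than the median gene between E11 and P1, and was called. Replication genes are textbook targets of E2F, the transcription factor family that the retinoblastoma protein holds in check. The 160 bases before the RefSeq start site (GRCm38.p6, gene strand, 5′ to 3′) are given for Mcm6 (chr1:128359706-128359865, minus strand), Orc1 (chr4:108579294-108579453, plus strand), Mcm10 (chr2:5012792-5012951, minus strand), Orc4 (the start site nearest the gene body of 3, chr2:48949268-48949427, minus strand) and Orc5 (chr5:22550339-22550498, minus strand). Capitals mark the E2F words TTTGGCGC, TTTGCCGC, TTTCGCGC and TTTCCCGC, read on either strand; overlapping words appear as 1 longer run.
Mcm6: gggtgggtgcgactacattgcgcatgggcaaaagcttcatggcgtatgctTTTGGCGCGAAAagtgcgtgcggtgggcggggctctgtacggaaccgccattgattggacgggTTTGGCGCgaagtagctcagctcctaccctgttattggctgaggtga
Orc1: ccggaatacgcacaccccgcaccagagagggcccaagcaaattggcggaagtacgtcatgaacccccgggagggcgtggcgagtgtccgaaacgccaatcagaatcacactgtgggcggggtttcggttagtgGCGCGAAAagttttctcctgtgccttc
Mcm10: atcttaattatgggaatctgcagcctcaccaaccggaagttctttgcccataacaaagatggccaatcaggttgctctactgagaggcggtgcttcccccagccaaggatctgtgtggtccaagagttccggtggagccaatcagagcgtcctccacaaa
Orc4: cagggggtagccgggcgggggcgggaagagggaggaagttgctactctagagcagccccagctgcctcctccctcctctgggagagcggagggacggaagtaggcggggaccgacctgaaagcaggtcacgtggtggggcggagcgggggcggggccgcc
Orc5: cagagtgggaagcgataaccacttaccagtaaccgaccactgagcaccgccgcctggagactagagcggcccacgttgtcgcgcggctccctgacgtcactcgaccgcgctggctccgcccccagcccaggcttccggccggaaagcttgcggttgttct

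Mcm6 holds 3 such words in this stretch and Orc1 holds 1, while Mcm10, Orc4 (at any of its 3 start sites) and Orc5 hold 0. In windows of 300 bases (250 before to 50 after the start), which the table gave for 38 of the 47 genes, the 4 words occurred in 15 of 38 (39.5%), against 2.6% of the 27025 genes of the table. Of the genes that fell more than the median gene, 8 of 14 held a word, and of those that fell less, 4 of 16 did: Mcm7, Orc3, Rfc3 and Pold3. The median change was -3.22 for genes with a word (range -4.98 to -0.66) and -2.63 for those without (-4.7 to -0.05). A CCAAT box was found in 60.5% of the 38 genes and 41.1% of all genes, and the GC box GGGCGG in 73.7% and 38.2%, on either strand. The motifs were chosen after the levels were seen, and a match is no proof of binding.

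Licensing genes fell the most as a group, to 5.56% of the E11 sum. Cdc6, which with ORC loads the MCM ring, was at 2.13 ± 0.193 CPM at P1 and 55.3 ± 1.55 CPM at E11 (log2 change -4.70 ± 0.16, edgeR adjusted p = 6.5e-12). Gmnn encodes geminin, the inhibitor that keeps CDT1 from loading MCM again after copying has begun. It had 57.3, 61 and 62.5 CPM at E11, 47.6, 33.1 and 47.1 CPM at E13, 4.96, 3.51 and 6.05 CPM at E17, and 2.08, 2.19 and 2.24 CPM at P1, a change of -4.79 ± 0.19. Its partner Cdt1 had 81.4, 82.6 and 87.8 CPM at E11, 66.2, 58.6 and 67.2 CPM at E13, 10.7, 7.91 and 11 CPM at E17, and 6.58, 7.35 and 6.45 CPM at P1, a change of -3.63 ± 0.11. For Gmnn and Cdt1, no neighbouring ages overlapped. All 3 fell more than the median gene, by 1.81 ± 0.18 for Gmnn, 1.72 ± 0.15 for Cdc6 and 0.65 ± 0.10 for Cdt1 (adjusted p = 3.67e-05 or less).

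The 6 genes of the MCM ring, which encode the helicase core in equal numbers per ring, summed to 192 CPM at P1 and 2050 CPM at E11 (9.36% left). All 6 fell, but Mcm7 fell least. It had 383, 375 and 374 CPM at E11, 347, 303 and 339 CPM at E13, 111, 101 and 120 CPM at E17, and 71.4, 73.2 and 58.1 CPM at P1, which left 17.9% (log2 change -2.48 ± 0.09, edgeR adjusted p = 1.38e-11). Mcm3 fell most, with 319, 322 and 329 CPM at E11, 249, 215 and 261 CPM at E13, 35.9, 28.3 and 40.1 CPM at E17, and 16.5, 15.4 and 14.6 CPM at P1, which left 4.79% (-4.38 ± 0.12). Ages did not overlap for either gene. Mcm2 (-4.15), Mcm5 (-3.82), Mcm4 (-3.51) and Mcm6 (-3.22) lay between them.

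Mcm7 was the only MCM gene with a smaller fall than the median gene (0.50 ± 0.09, adjusted p = 8.43e-05); the other 5 fell more (by 0.24 to 1.40). Per kb of exon the 6 genes began close together, with a 1.64-fold range at E11 between Mcm3 at 86.2 and Mcm2 at 52.5 CPM per kb. The low place of Mcm2 depends on its 6956 merged exon bases, against 3752 for Mcm3. Before that division Mcm2 stood above Mcm3 at E11, with 365 against 323 CPM. At P1 the range was 5.19-fold, between Mcm7 at 15.3 and Mcm2 at 2.95 CPM per kb. Of the exon bases of Mcm7, 7.25% overlap Ap4m1 and 1.45% overlap Cops6, both on the opposite strand. Ap4m1 had 39.4 CPM at P1 and 57.9 CPM at E11, and Cops6 had 80.8 and 109 CPM. On the same strand, 1.9% overlap Mir25 and 1.99% overlap Mir93. The part of these neighbours in the course of Mcm7 was not tested.

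Helicase activation genes kept 12.4% of their E11 sum. Mcm10, which helps to start unwinding, fell most, with 83.3, 77.6 and 82.8 CPM at E11, 60.9, 54.4 and 65 CPM at E13, 9.39, 5.91 and 9.33 CPM at E17, and 3.33, 3.61 and 2.44 CPM at P1, a log2 change of -4.70 ± 0.17 and a fall 1.72 ± 0.17 larger than that of the median gene (edgeR, adjusted p = 3.59e-07). The 4 GINS subunits act as 1 complex with CDC45, yet their genes did not fall alike. Gins4 had 36.4, 38 and 40.6 CPM at E11, 39.1, 32.7 and 38.5 CPM at E13, 19.8, 18.9 and 20.7 CPM at E17, and 13.8, 14.4 and 14.7 CPM at P1: the E13 and E11 values overlapped, and 37.4% was left at P1. Its change was -1.42 ± 0.08, or 1.56 ± 0.08 less of a fall than the median gene (adjusted p = 6.57e-11).

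Gins1 fell to 16.5% of the E11 level (-2.60), Gins2 to 9.12% (-3.45), Gins3 to 8.84% (-3.50) and Cdc45 to 9.59% (-3.38). Gins1 fell less than the median gene (adjusted p = 0.00236), and Gins2, Gins3 and Cdc45 fell more (adjusted p = 0.00594 or less). Of the exon bases of Gins2, 67.3% overlap Gse1 on the opposite strand, which had 127 CPM at P1 and 83.8 CPM at E11.

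Polymerase and primase genes kept 20.2% of their E11 sum, and their changes ran from -3.90 to -1.28. Pole2, the second subunit of the leading-strand polymerase epsilon, fell most, with 30, 32.5 and 33.1 CPM at E11, 25.7, 21.4 and 28.3 CPM at E13, 3.75, 3.22 and 3.89 CPM at E17, and 1.92, 2.42 and 2.05 CPM at P1 (log2 change -3.90 ± 0.13, 6.69% left). Pole, its catalytic subunit, changed by -3.05 ± 0.10, with no departure called (edgeR, adjusted p = 0.455; 95% interval of the departure -0.28 to 0.13). The values of Pole2 did not overlap between any neighbouring ages.

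Prim2, the large subunit of the primase that lays RNA primers, had 56.7, 57.2 and 54.4 CPM at E11, 48.5, 43.4 and 48.9 CPM at E13, 28.6, 27 and 30 CPM at E17, and 22.7, 22.7 and 23.7 CPM at P1. Its P1 values were below all others, and 41.1% was left (-1.28 ± 0.06). The catalytic primase gene Prim1 kept 23.2% (-2.11 ± 0.07), and Pola1 and Pola2 of polymerase alpha kept 13.8% and 17.1%. In polymerase delta, the catalytic Pold1 kept 12.6% (-2.99 ± 0.08), whereas the accessory Pold2 and Pold3 kept more. Pold3 had 121, 121 and 125 CPM at E11, 92.7, 86 and 98.8 CPM at E13, 43.3, 43.3 and 46.5 CPM at E17, and 41.1, 38.4 and 42.2 CPM at P1 (33.2% left, -1.59 ± 0.06). Each of its P1 values lay below its E17 values, but by too little for a call (edgeR, adjusted p = 0.0909).

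Pold2 had 69.8, 66.1 and 66.3 CPM at E11, 67.9, 56.5 and 64.6 CPM at E13, 27.1, 26.2 and 28.8 CPM at E17, and 20.5, 18 and 19.7 CPM at P1 (28.8% left, -1.80 ± 0.08). Its levels at E13 overlapped those at E11. Against the median gene, the departures were 1.70 ± 0.06 for Prim2, 1.39 ± 0.06 for Pold3 and 1.18 ± 0.07 for Pold2 (edgeR, adjusted p = 9.8e-10 or less), and 0.87 ± 0.07 for Prim1 and 0.43 ± 0.08 for Pola2; for Pola1 and Pold1 no departure was called (adjusted p = 0.198 and 0.929).

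Clamp and clamp-loader genes kept 22.7%. Pcna, the ring that holds the polymerase on DNA, was at 51.6 ± 0.682 CPM at P1 and 298 ± 9.05 CPM at E11 (log2 change -2.53 ± 0.08). A gene named as its pseudogene, Pcna-ps2, had 361 counts over all libraries, 0.526% of those of Pcna. The 5 replication factor C genes encode the loader that opens this ring, and they ranged widely. Rfc2 had 122, 127 and 122 CPM at E11, 104, 96.3 and 111 CPM at E13, 53.9, 52.5 and 55.9 CPM at E17, and 48.7, 49.7 and 49.3 CPM at P1, which left 39.8% (-1.33 ± 0.05). The 3 P1 values lay just below the E17 values, a difference that missed the threshold (-0.14 ± 0.05, edgeR, adjusted p = 0.0514).

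Rfc3 had 63, 64.7 and 67.8 CPM at E11, 60.3, 45.1 and 58.8 CPM at E13, 27.3, 22.6 and 28.3 CPM at E17, and 19.8, 22.3 and 19.5 CPM at P1, which left 31.5% (-1.67 ± 0.11), and its lowest E17 value, 22.6 CPM in library B, lay next to its highest P1 value. Rfc4 fell most, with 72.3, 81.6 and 80.1 CPM at E11, 58.9, 46 and 61.1 CPM at E13, 15.9, 14 and 17.6 CPM at E17, and 9.59, 8.43 and 7.81 CPM at P1, which left 11% (-3.18 ± 0.12). Rfc1 (-2.22) and Rfc5 (-2.10) lay between. Rfc2 and Rfc3 fell less than the median gene by 1.65 ± 0.05 and 1.31 ± 0.11 (edgeR, adjusted p = 4.08e-08 or less), Rfc1, Rfc5 and Pcna by 0.76, 0.88 and 0.45, and for Rfc4 no departure was called (-0.20 ± 0.12, adjusted p = 0.114). By exon bases, 15.1% of Rfc2 overlap Lat2, 12.7% of Rfc4 overlap Eif4a2 and 10.7% of Rfc5 overlap Wsb2, all on the opposite strand. Wsb2 had 367 CPM at P1 and 58.1 CPM at E11, Eif4a2 had 422 and 186 CPM, and Lat2 had 2.1 and 1.77 CPM. The part of these neighbours in the courses of the Rfc genes was not tested.

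RPA, the complex of 3 subunits that coats single-stranded DNA, kept 19.6% of its summed RNA. Rpa1 had 217, 223 and 203 CPM at E11, 189, 165 and 188 CPM at E13, 64, 64 and 66.8 CPM at E17, and 51.4, 50.5 and 52.4 CPM at P1, which left 24% (log2 change -2.06 ± 0.06). Rpa2 had 118, 118 and 114 CPM at E11, 97.6, 82 and 102 CPM at E13, 21.5, 20.3 and 24 CPM at E17, and 14.6, 14.3 and 15.5 CPM at P1, which left 12.7% (-2.98 ± 0.09), and is itself the median gene. Rpa3 kept 16.1% (-2.63 ± 0.13) and had 42.9% of its log2 fall between E17 and P1, the highest such share among the 46 genes. Ages did not overlap for Rpa1 or Rpa2, and every P1 value of Rpa3 lay below its E17 values.

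The genes that finish lagging-strand fragments kept 12.9% of their E11 sum. Fen1, the flap endonuclease, had 135, 135 and 138 CPM at E11, 116, 95.5 and 113 CPM at E13, 22.8, 19.8 and 27.2 CPM at E17, and 14.6, 17.5 and 16.2 CPM at P1 (log2 change -3.08 ± 0.11). Lig1, the ligase that seals the fragments, had 258, 229 and 243 CPM at E11, 188, 169 and 196 CPM at E13, 48, 37.1 and 51.3 CPM at E17, and 32.6, 32.2 and 34.2 CPM at P1 (-2.88 ± 0.10). Ages did not overlap for either gene. No departure from the median gene was called between E11 and P1 for Fen1 (edgeR, adjusted p = 0.382, 95% interval -0.33 to 0.13) or Lig1 (adjusted p = 0.348, -0.12 to 0.31). Of the exon bases of Fen1, 78.8% overlap Gm10143 on the opposite strand, which had at most 0.685 CPM on average at any age. Tmem258, also on the opposite strand, overlaps 5.37% and had 33.8 CPM at P1 and 44.3 CPM at E11. The part of these neighbours in the course of Fen1 was not tested.

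Nucleotide supply genes kept 10.1% of their E11 sum. Tk1, the thymidine kinase of S phase, fell most, with 84.4, 83.7 and 79.5 CPM at E11, 75.8, 59.4 and 72.9 CPM at E13, 9.13, 6.23 and 9.73 CPM at E17, and 3.92, 4.25 and 3.99 CPM at P1 (log2 change -4.35 ± 0.15, 4.91% left). Rrm1, the large subunit of ribonucleotide reductase, fell least, with 502, 513 and 506 CPM at E11, 418, 335 and 421 CPM at E13, 106, 87.3 and 113 CPM at E17, and 62.1, 59.4 and 57.5 CPM at P1 (-3.09 ± 0.10, 11.8% left). Ages did not overlap for either gene. Rrm2, the other reductase subunit, changed by -3.34 and Tyms, thymidylate synthase, by -3.80. Tk1, Tyms and Rrm2 fell more than the median gene (edgeR, adjusted p = 0.00789 or less).

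Of the fork protection pair, Timeless fell to 11% of its E11 level and its partner Tipin to 22.5%. Timeless had 119, 107 and 118 CPM at E11, 104, 102 and 109 CPM at E13, 23.6, 20.3 and 26.7 CPM at E17, and 11.2, 14.3 and 12.4 CPM at P1 (log2 change -3.18 ± 0.10). Tipin had 91.6, 89.6 and 95 CPM at E11, 79.8, 63.4 and 78.2 CPM at E13, 24.1, 21.4 and 25.7 CPM at E17, and 19.2, 22.9 and 20.1 CPM at P1 (-2.15 ± 0.10). Tipin fell less than the median gene by 0.83 ± 0.09 (edgeR, adjusted p = 9.26e-07), and for Timeless no departure was called (-0.20 ± 0.10, adjusted p = 0.0603). Timeless overlapped between E13 and E11. For Tipin, P1 and E17 overlapped, and P1 was not called lower than E17 (adjusted p = 0.105).

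Other genes of replication and of cell division were counted from lists of the same kind, given beside the 47 for scale. All 16 other initiation genes were lower at P1 than at E11 in edgeR's test, with a median change of -2.93. Their changes ran from -4.14 to -0.61, and 6 fell more and 6 fell less than the median replication gene. Ticrr, which helps to recruit CDC45, changed by -4.14 and Ccna2, cyclin A2, by -4.03. Of 21 other fork and chromatin assembly genes, 19 were lower and 2 higher (median -2.46). Uhrf1, which guides maintenance DNA methylation, changed by -4.66 and the histone chaperone gene Asf1b by -4.58, whereas Pold4, the small subunit of polymerase delta, was higher at P1, with 6.04 CPM against 2.92 CPM at E11 (1.05 ± 0.13). Pole4 was also called higher (0.27 ± 0.08, adjusted p = 0.00629), but its call was lost with upper-quartile scaling (0.17) and with library size alone (0.04).

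Of 12 other nucleotide supply genes, 10 were lower and 2 higher (median -1.66). Shmt1, which feeds carbon into thymidylate, changed by -3.39. Tk2, the mitochondrial thymidine kinase, was higher at P1, with 48.3 CPM against 23.5 CPM at E11 (1.04 ± 0.07). Rrm2b, the ribonucleotide reductase subunit used outside S phase, was higher too, with 18 CPM against 9.51 CPM (0.92 ± 0.09, edgeR adjusted p = 1.92e-07). Their S-phase counterparts Tk1 and Rrm2 fell by 4.35 and 3.34 on the same scale.

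Of 13 E2F and pocket protein genes, 11 were lower and 2 higher (median -1.85). The activator gene E2f2 changed by -4.59 and E2f8 by -3.98, whereas Rbl2, the p130 pocket protein, was higher at P1 (0.61 ± 0.08). Rb1 was called higher (0.29 ± 0.07, edgeR adjusted p = 0.00131), a call lost with library size alone (0.06). All 20 mitosis genes were lower, and their changes lay between -4.83 for Bub1 and -3.88, a range of 0.95. The range was 4.93 over the 47 replication genes, and a wide range was not particular to them. It was 3.53 for the other initiation genes and 5.71 for the other fork and chromatin assembly genes. For the other nucleotide supply genes it was 4.73, and for the E2F and pocket protein genes 5.2. All 20 fell more than the median replication gene in edgeR's test against that median, both between E11 and P1 and between E13 and E17.

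**Figure D4:**
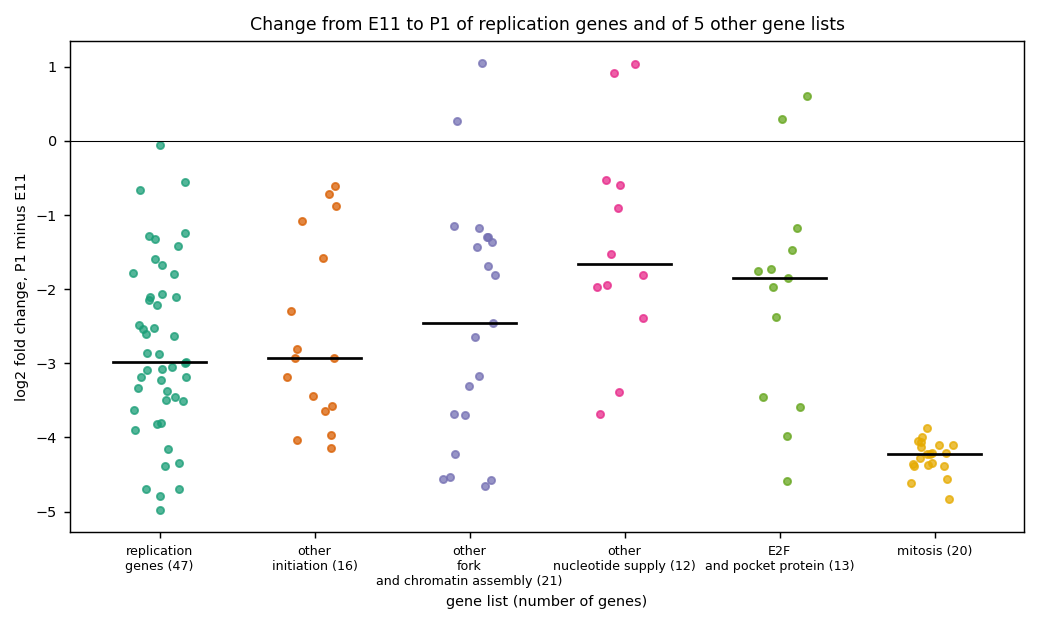
Log2 fold change of P1 over E11 for each gene (points) of the replication list and of 5 other lists, with the median of each list as a bar; the horizontal line is no change. The replication genes spread between -4.98 and -0.05, and the 20 mitosis genes lie together between -4.83 and -3.88. The remaining lists also spread widely, with ranges of 3.53 to 5.71.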

How the data were processed

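The deposited files hold raw read counts per Ensembl gene, with no normalization, per the file headers and values; per the submitters' processing notes the authors used STAR 2.5.2b and HTSeq 0.5.3, along with bcl2fastq 2.18, SAMtools and DESeq2 1.8.1. Per the labels' protocols, libraries were polyA-selected and strand-specific and read as 75 bp single reads. Which build, annotation release and strand setting the counting used is not given in the sources used here. Total counts were 28173745 to 45858712 per library, and no pair of libraries of 1 age agreed within sampling noise.

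The counts were tested with edgeR 4.0.16 in R 4.3.3: filterByExpr with a minimum count of 10 (17847 genes kept, 32753 removed), TMM scaling (factors 0.92 to 1.094), and a robust quasi-likelihood fit to all 12 libraries with 1 coefficient per age. Tests are two-sided, later age minus earlier, with Benjamini-Hochberg adjustment across the tested genes, with a threshold of 0.05; the common biological coefficient of variation was 0.106. Departure from the common fall was tested in a second fit of the same model. There the median change of the 47 genes was added as an offset to the libraries of the later age. Errors of fold changes are standard errors. The steps were tested on simulated data.

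The members and lists were chosen with earlier results of these data known. Values in every library are given for genes without a call at P1 against E11, for those that fell at least 1 less (log2) than the median gene past the threshold, and for the largest and smallest fall of each role group. Symbols came from a gene table (50376 of 50600 identifiers matched), exon lengths and overlaps from GENCODE M21, and promoters from RefSeq (GRCm38.p6); exon models may differ from those the authors counted. Alternatives were DESeq2 1.42.0, limma-voom (limma 3.58.1), other scalings and filters, a replicate block and leaving out libraries. Of each other list the 2 largest falls and rises are named, except 1 gene that is not reported here.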

Additional observations from a re-analysis of the deposited data

How the results depend on the processing

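Over 24 other settings, 4380 of 4512 changes of single genes kept their direction and their side of the threshold, 87 lost a call, 39 gained one and 6 changed sign. The count of genes lower at E13 than at E11, 37 as reported, ranged from 21 (without E13 B) to 39 when 1 library was left out; it was 26 with E17 A, E13 C and E11 C left out at once, and the cause was not tested. The other counts moved by less than 1.5 times under every setting run. When 1 library was left out, 45 to 46 genes were lower at E17 than at E13, 36 to 45 at P1 than at E17 and 46 at P1 than at E11; 20 to 21 fell less and 17 to 18 fell more than the median gene between E11 and P1. The sign changes were all of values near 0. Orc4 at P1 against E17 became 0 with upper-quartile scaling (adjusted p = 0.966) and ranged from -0.06 to 0.05 (without P1 A) when 1 library was left out, and it also became 0 without E17 A. Orc4 at P1 against E11 ranged from -0.07 to 0.03 (without P1 A). Gins4 at E13 against E11 ranged from -0.1 to 0.02 (without E13 B), and was 0.02 without E13 B and E17 B together. Scaling by library size alone made 60.2% of the called genes lower at E17 than at E13, against 50.2% with TMM scaling, and moved the median of all genes by -0.18 there and by -0.23 at P1 against E11. Of 18 pairs of libraries of different ages with the same replicate letter, 4 had correlated deviations over 0.1, against 13 of 36 pairs with other letters. With 3 libraries per age, this check cannot tell whether libraries of the same letter shared a batch. With the letter as a replicate block, 36 genes were lower at E13 than at E11, 46 at E17 than at E13, 39 at P1 than at E17 and 46 at P1 than at E11. Low counts limit Orc1 at E17 and P1, which had 18 to 60 counts per library.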
